A study of Mus musculus with 69 samples.

Results

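The effect of a second altered Zeb1 allele was examined in young pituitary, by setting 4 libraries of Zeb1_200M mice, which carry the alteration on both alleles, against 4 libraries of Zeb1_200H mice, which carry it on 1. These 8 of the series' 69 libraries were taken from the labels of tissue, cohort and genotype, and the 3 young WT libraries and the 11 older pituitary libraries were used only to set the second step beside the first. The alteration is a germline knock-in of point mutations into the 3′ UTR of Zeb1 that removes its sites for miR-200a and miR-200b, so every cell of the animal carries it, the 200H controls included. The young mice were virgin females of 8 to 12 weeks and the older ones females aged 28 to 36 weeks, used earlier for breeding; all were staged for proestrus, on a C57BL/6J background, and each library came from a different mouse. The knock-in was bred from clonal embryonic stem cell lines, and the labels do not say which animal came from which line.

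ZEB1 is a transcription repressor that binds short E-box elements and silences epithelial genes. The miR-200 family lowers ZEB1, and ZEB1 in turn represses the genes that make miR-200, so that each holds the other down. In the pituitary the miR-200 family is known for its part in luteinizing hormone production by gonadotropes, the cells that release the hormone which triggers ovulation.

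The miRNAs whose sites were removed fall into 2 groups by their seed, bases 2 to 8, which pairs with the target and is written here in capitals. The sequences are those of RefSeq on GRCm38.p6, shown because the seed defines which sites the altered allele lacks. The first 2 share the seed AACACUG and the last 3 the seed AAUACUG.
miR-200a-3p: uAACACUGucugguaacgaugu
miR-141-3p: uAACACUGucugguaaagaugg
miR-200b-3p: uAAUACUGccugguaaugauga
miR-200c-3p: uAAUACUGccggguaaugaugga
miR-429-3p: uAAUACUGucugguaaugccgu
The genes of miR-200b, miR-200a and miR-429 lie together at chr4:156053916-156055706, and those of miR-200c and miR-141 at chr6:124717917-124718346, all on the minus strand.

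The measurement was the number of reads assigned to each gene, given here as CPM, that is counts scaled to a common library size, with TMM factors over the 11 young pituitary libraries. The 8 libraries held 7560888 to 13342430 counts, and 18271 genes passed the filter on low counts. Markers of the hormone cells were present, with growth hormone (Gh) at 24590 to 39440 CPM and proopiomelanocortin (Pomc) at 622 to 946 CPM. In each genotype 1 library had the highest Fos, an immediate early gene, at 205 CPM in 200H replicate 3 and 172 CPM in 200M replicate 4, against 6.91 to 34.2 CPM in the other 6. Those 2 libraries also stood apart from the other 6 on the second principal component of the 2000 most variable genes. The numbers of calls and a few single genes are given with and without them. Gene lists are not given without both. In whole pituitary, fewer cells of a type and less RNA per cell cannot be told apart.

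The first question was whether the second altered allele raised Zeb1 further. Zeb1 was at 136, 130, 128 and 127 CPM in 200H replicates 1 to 4 and at 133.5, 137, 145 and 136 CPM in the 200M replicates. The ranges overlapped, and the log2 difference of 0.08 (SE 0.05) did not pass the test (adjusted p = 0.91, edgeR quasi-likelihood test with Benjamini-Hochberg adjustment, as for every adjusted p below unless another tool is named). The step from WT to 200H was 0.44 (SE 0.07, adjusted p = 0.000894), and the difference between the steps was -0.35 (adjusted p = 0.0869). Zeb2, the second ZEB repressor, had a log2 difference of 0.20 (adjusted p = 0.872). Gm13648, the transcript that holds miR-200b, miR-200a and miR-429, lay at 2.32 to 4.15 CPM in 200H and at 2.02 to 2.47 CPM in 200M. Its second step was -0.40 (SE 0.24, adjusted p = 0.903) after a first step of -2.40 (adjusted p = 6.13e-06). Gm13648 overlaps Ttll10 on the same strand, so that reads of the pair cannot be told apart. Gm15884, the transcript at the other cluster, was under the count filter in these 8 libraries, at 0.155 to 0.999 CPM.

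Across all genes few were called between 200M and 200H. edgeR called 7 of 18271 tested genes (0.0383%) at an adjusted p under 0.05, of which 3 were higher in 200M (0.0164%) and 4 lower (0.0219%). At an unadjusted p under 0.05 there were 602 higher (3.29%) and 479 lower genes (2.62%). DESeq2, the tool of the study, called 44 of 18500 genes (0.238%), 27 higher (0.146%) and 17 lower (0.0919%), and these 44 include the 7 called by edgeR. The higher genes were Peg10, Bpifa2 and Grin2b, and the lower ones Epcam, Gm47691, Tmc4 and Tgfbr3l. The number rests on single libraries, being 0 without 200M replicate 1 or 200M replicate 3, 1 without 200H replicate 1 or 200H replicate 4, 4 without 200M replicate 4 and 26 without 200H replicate 3. It was 37 without both libraries of highest Fos, and all 7 genes were among these.

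**Figure D1:**
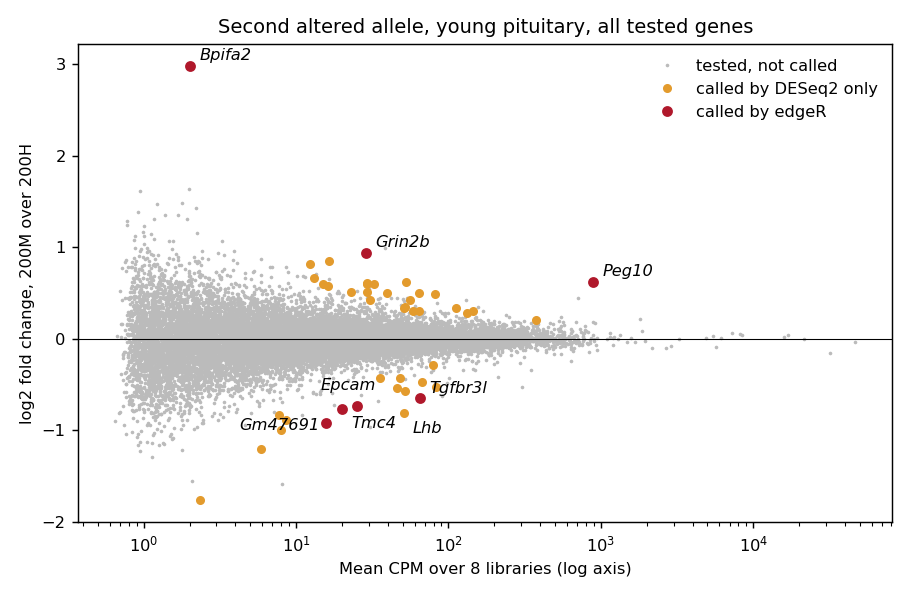
Log2 difference of 200M over 200H (vertical axis) against mean CPM over the 8 libraries (horizontal log axis) for each of the 18271 genes tested in young pituitary. The 7 genes called by edgeR are in red and named, as is Lhb, and the genes called by DESeq2 alone are in orange.

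Of the genes that mark epithelia, Epcam and Tmc4 fell. Epcam, the epithelial cell adhesion molecule (ENSMUSG00000045394, chr17:87635979-87651129, plus strand) was at 33.0, 30.1, 32.6 and 29.4 CPM in the 200H replicates and at 17.0, 20.1, 17.8 and 20.4 CPM in the 200M replicates. Every 200M library lay below every 200H library, as was so for 1.53% of all tested genes, with 1.74% separated in the other direction. The log2 difference was -0.74 (SE 0.09, adjusted p = 0.0158), which is 1.67-fold lower. Leaving out 1 library gave -0.79 to -0.68, and the call was kept in 4 of these 8 fits.

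Tmc4, a member of a family of channel-like membrane proteins (ENSMUSG00000019734, chr7:3665790-3677553, minus strand), was at 22.9, 25.0, 27.7 and 25.1 CPM in 200H and at 17.9, 14.4, 14.9 and 11.7 CPM in 200M. The groups did not overlap. The log2 difference was -0.76 (SE 0.11, adjusted p = 0.0399), and it was called in 1 of the 8 fits with a library left out. Tmc4 shares part of its strand with Leng1, so that its reads are less certain.

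The epithelial list as a whole was lower in young 200M. Of its 44 genes 38 were tested, and 37 of these had a negative log2 difference, with a median of -0.25 (-1.02 to 0.18), beside a median of -0.00 over all genes, of which 50.71% were negative. edgeR called 2 (Epcam and Tmc4), DESeq2 called 3 (with Lsr, a tricellular junction protein), and 13 of 38 (34.21%) were lower at an unadjusted p under 0.05, beside 2.62% of all genes. In 8 of 38, beside 1.53% of all genes, every 200M library lay below every 200H library, among them Epcam, Esrp1, Cldn7, Spint1, Spint2, Lsr and Tmc4. Esrp1, an epithelial splicing regulator, was at 8.86, 7.04, 8.81 and 7.35 CPM in 200H and at 3.96, 5.33, 6.15 and 6.05 CPM in 200M, a log2 difference of -0.58 (SE 0.17, adjusted p = 0.504). Rab25, a small GTPase of epithelial membrane traffic, was at 3.18 to 4.66 CPM in 200H and at 2.22 to 3.66 CPM in 200M, and its log2 difference of -0.49 did not pass (adjusted p = 0.843). The list was drawn up with earlier results of these data known, and the study named Epcam, Esrp1 and Rab25 from these mice. Members of the list are therefore not independent evidence for its direction. Cdh1, the epithelial cadherin, had a log2 difference of -0.01 (adjusted p = 0.998).

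Among the other genes DESeq2 called lower, Dsg2, a desmosomal cadherin, was at 39.7 to 42.0 CPM in 200H and at 28.2 to 33.1 CPM in 200M, a log2 difference of -0.43 (SE 0.08, edgeR adjusted p = 0.125, DESeq2 adjusted p = 0.00597). Rab11fip1, a partner of the recycling GTPase Rab11, was at 49.4 to 59.6 CPM in 200H and at 37.7 to 44.7 CPM in 200M, with a log2 difference of -0.42 (edgeR adjusted p = 0.125, DESeq2 adjusted p = 0.00518). In both genes the groups did not overlap. Tmem184a had a log2 difference of -0.99 and Fam187b one of -1.76, both called by DESeq2 alone (adjusted p = 0.00597 and 0.0114). Alox12e, a lipoxygenase gene, had -0.89, and Rnase1, a secreted ribonuclease, -1.21.

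The promoters of several of these genes hold the letters to which ZEB1 binds, so they were read. CAGGTA and CAGGTG were searched on both strands (as TACCTG and CACCTG) in RefSeq windows of GRCm38.p6 from 250 bases before to 50 bases after each gene start. CAGGTG is one form of the wider E-box CANNTG, and no other factor of that class was searched. Of 11627 tested genes with a window 28.9% held 1 or more matches, as did 29.5% of all 32851 windows. Among genes that DESeq2 called lower, 11 of 14 with a window did (78.6%), among those called higher 7 of 16 (43.8%), and in the epithelial list 19 of 24 (79.2%). The 11 include Tacc2 and Ddit4l, which rose in the first step. They also include Epcam and Tmc4, which are in the epithelial list, so that these shares are not separate. Stretches of up to 30 bases are shown in the direction of the gene for lower genes and Gm13648, and for Ncan, which was higher by DESeq2, and Pomc, which was not called. In each, 1 match is in capitals, and any further match within the stretch is left in lower case.
Epcam (chr17:87635948-87635977, plus strand): acccataaaaccCAGGTGtggaggagaagc
Epcam (chr17:87635780-87635809, plus strand): gccagtagggccCACCTGctggaggaccgg
Tmc4 (chr7:3677571-3677600, minus strand): tcacctagtggcCAGGTGcagacctgtagc
Rab25 (chr3:88548315-88548344, minus strand): ccacctgtgcccCAGGTGcccagcggagct
Gm13648 (chr4:156059857-156059886, minus strand): gcaggcaacagaCACCTGcactgggcgggg
Lhb (chr7:45420899-45420928, plus strand): ccccacaacccgCAGGTAtaaagccaggtg
Ncan (chr8:70120944-70120973, minus strand): agggggcggagtCAGGTGtagccagcccct
Pomc (chr12:3954733-3954762, plus strand): aaccaccagcgcCAGGTGtgcgcttcagcg
Counted from the RefSeq start, the matches in capitals begin 19 and 187 bases before the start of Epcam, 35 before that of Tmc4, 53 before that of Rab25, 72 before that of Gm13648, 35 before that of Lhb, 117 before that of Ncan and 200 before that of Pomc. The RefSeq start of Lhb lies downstream of the GENCODE start given for the gene below, so that this match is inside the GENCODE gene. The window of Rab25 holds a second match, 64 bases before the start and within the stretch shown. The Lhb window holds 3 more, 188 and 23 before and 19 after the start, of which the one at 23 is within the stretch shown. Gm13648 has 1 more and Ncan 2 more. Other described genes that rose or were not called in the second step hold matches too, among them Fshb, Chga, Ndrg4, Dnm1, Dpp6 and Myo5c, while Cga, Prl, Trank1 and Akap6 hold none in their windows. A match says only that these letters are present.

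The next question was whether the second allele changed gonadotrope genes. Lhb, the beta subunit of luteinizing hormone (ENSMUSG00000100916, chr7:45420820-45421897, plus strand), was at 57.6, 70.3, 64.1 and 67.3 CPM in 200H and at 33.45, 50.0, 35.75 and 28.1 CPM in 200M. Every 200M library was below every 200H library. The log2 difference of -0.81 (SE 0.13) is 1.75-fold lower. It was called by DESeq2 (adjusted p = 3.01e-05) and missed the threshold in edgeR (adjusted p = 0.0637). Leaving out 1 library gave -0.99 to -0.72, with a call in 2 of 8 fits.

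Tgfbr3l, a membrane protein of gonadotropes that serves as a coreceptor for inhibin B (ENSMUSG00000089736, chr8:4248214-4251423, plus strand), was at 73.6, 69.7, 89.7 and 84.4 CPM in 200H and at 45.8, 58.35, 48.0 and 50.7 CPM in 200M. It was 1.56-fold lower in 200M, without overlap (log2 difference -0.64, SE 0.10, adjusted p = 0.0399). It was called in 3 of the 8 fits with a library left out, and it overlaps the annotated gene Gm49320 on the same strand.

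The other gonadotrope genes did not move together. Cga, the alpha subunit common to glycoprotein hormones, was at 600 to 794 CPM in 200H and at 491 to 652 CPM in 200M, with a log2 difference of -0.24 (SE 0.08, adjusted p = 0.699). Fshb, the beta subunit of follicle-stimulating hormone, had 0.12 (SE 0.24, adjusted p = 0.998), and Gnrhr, the receptor for gonadotropin-releasing hormone, 0.01 (SE 0.09, adjusted p = 0.998). Of 22 tested genes of the list 10 were positive and 12 negative, with a median of -0.05. edgeR called 0 higher and 1 lower (Tgfbr3l), DESeq2 called 2 lower, and 0 higher and 4 lower genes (18.18%, beside 2.62% of all genes) had an unadjusted p under 0.05, the other 2 being Cga and Smad3, a signal carrier of the activin pathway.

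**Figure D2:**
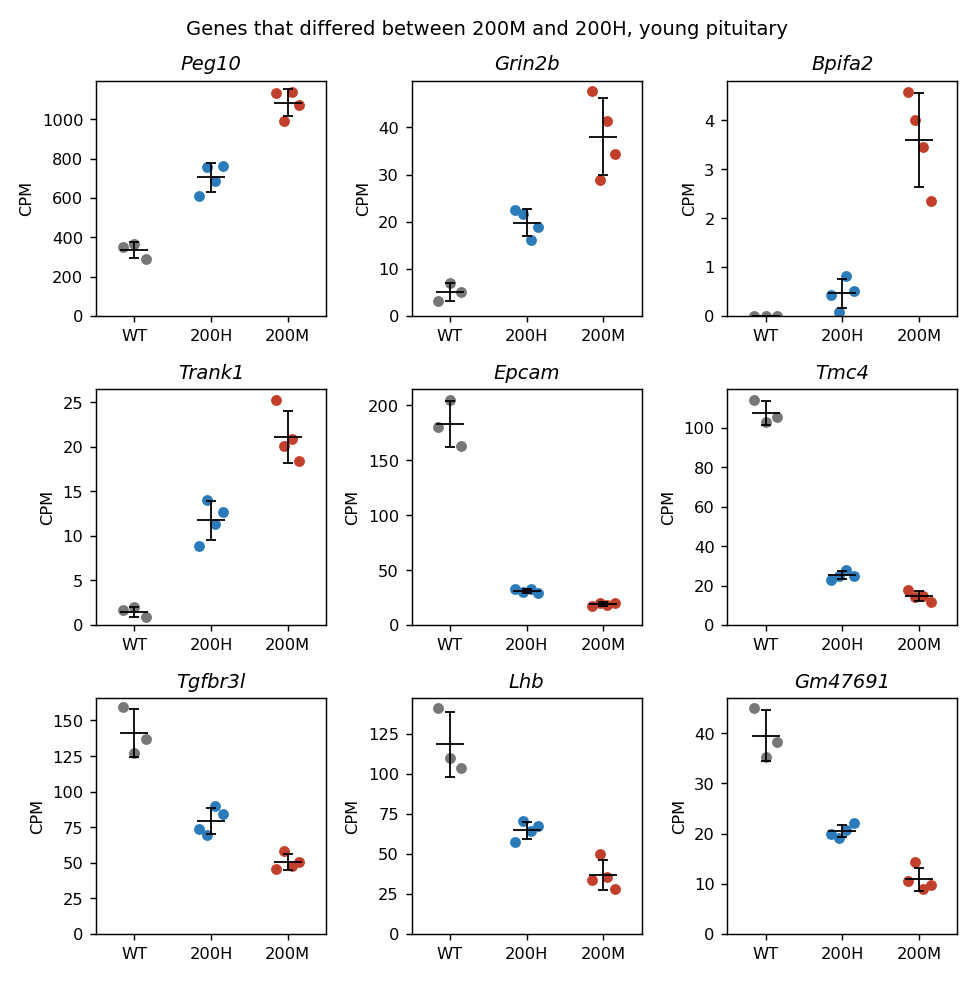
CPM (vertical axis, from 0) of 9 genes in each young pituitary library of WT (grey), 200H (blue) and 200M (red), with mean and SD bars over 3, 4 and 4 libraries. In each panel all 200M libraries lie outside the range of the 200H libraries, and Bpifa2 is at 0 in the WT libraries.

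Among the genes that rose, Grin2b, a subunit of the NMDA receptor of glutamate (ENSMUSG00000030209, chr6:135713233-136173511, minus strand), was at 22.4, 21.6, 16.2 and 18.8 CPM in 200H and at 47.7, 28.8, 41.3 and 34.4 CPM in 200M. The groups did not overlap, and the log2 difference was 0.94 (SE 0.14, adjusted p = 0.0399), a 1.92-fold rise called in 2 of 8 fits with a library left out. Trank1, at 8.86, 14.0, 11.3 and 12.7 CPM in 200H and 25.2, 20.1, 20.9 and 18.4 CPM in 200M, was 1.81-fold higher without overlap. It was called by DESeq2 (adjusted p = 0.000308) and not by edgeR (adjusted p = 0.0637).

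Several genes that DESeq2 alone called higher are known from neurons, and those named here follow its smallest p-values. Akap6, an anchor for protein kinase A, was at 64.0 to 72.7 CPM in 200H and 81.3 to 106 CPM in 200M (log2 difference 0.49, DESeq2 adjusted p = 0.000308). Nrsn2, a vesicle protein of neurons, had a log2 difference of 0.43 and Adcyap1r1, the receptor of the peptide PACAP, 0.50, each with a DESeq2 adjusted p of 0.0018. Ncan, a brain proteoglycan, had 0.67, Shc3, a signalling adaptor of neurons, 0.61, and Celf4, a neuronal RNA-binding protein, 0.30. Ndrg4 had 0.50. In these 7 genes the groups did not overlap.

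The neuronal list was shifted upward. Of 33 genes, all tested, 28 were positive (84.85%, beside 49.29% of all genes) and the median log2 difference was 0.19 (-0.32 to 0.96). edgeR called 0 of them, DESeq2 called 3 (Trank1, Celf4 and Nrsn2), and 15 (45.45%) were higher and 0 lower at an unadjusted p under 0.05, beside 3.29% of all genes that were higher. The list was drawn up with earlier results of these data known, and Trank1 and Nrsn2 also rose in the first step. Its members are therefore not independent evidence for the direction of the list. Gap43, a growth cone protein, had 0.96 (adjusted p = 0.379) and Snhg11, outside the list, 0.45 (adjusted p = 0.395). The genes of neurosecretory granules were positive in 12 of 13, with a median of 0.07 and 0 called by either tool. Among these Vgf, a granule peptide precursor, was at 16.2 to 42.6 CPM in 200H and 37.3 to 65.2 CPM in 200M (log2 difference 1.00, SE 0.24, adjusted p = 0.27), and Chga, which encodes chromogranin A, had 0.20 (adjusted p = 0.665). Markers of the posterior lobe and its pituicytes had a median of 0.00, and their summed level was 249 to 294 CPM in 200H and 268 to 310 CPM in 200M, of 7 genes. The 3 tested markers of hypothalamic neurons and myelin had a median of -0.07. The summed level of all 6 markers of that list was 64.6 to 111 CPM in 200H and 77.9 to 140.6 CPM in 200M.

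**Figure D3:**
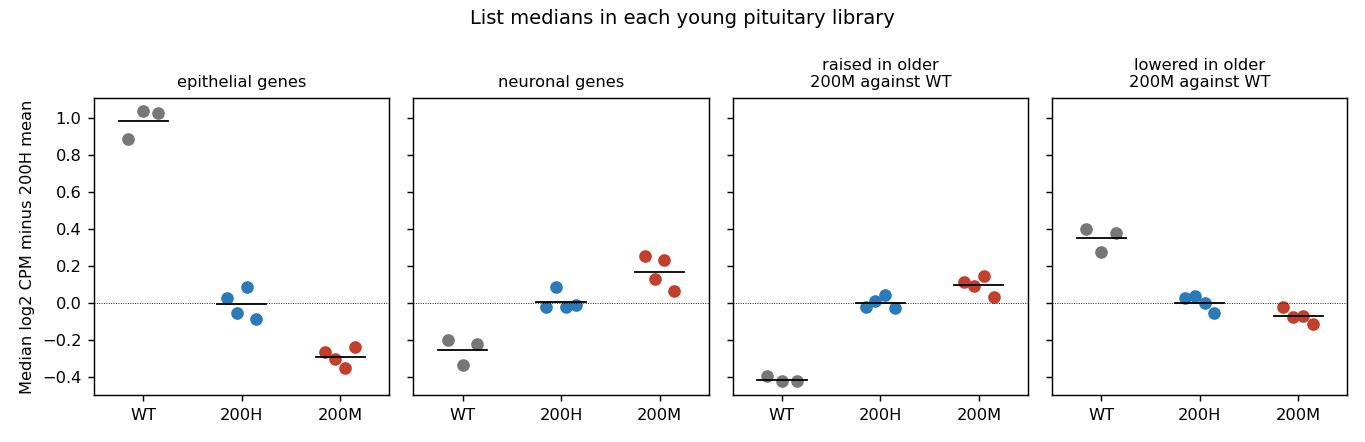
Median over a list of log2 CPM minus the mean of the 4 200H libraries (vertical axis) for each young pituitary library of WT, 200H and 200M, with bars at the group means. The epithelial medians of 200M lie between -0.35 and -0.24, below every 200H library, while in the other 3 lists the 200M and 200H ranges overlap.

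The gene with the smallest p was Peg10, an imprinted gene derived from a retrotransposon (ENSMUSG00000092035, chr6:4747306-4760517, plus strand). It was at 611, 758, 684 and 763 CPM in 200H and at 1135, 990, 1138 and 1075 CPM in 200M. All 4 200M libraries were above all 4 200H libraries, by 1.54-fold (log2 difference 0.62, SE 0.08, adjusted p = 0.0158). It was called in 6 of the 8 fits with a library left out.

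Bpifa2 (ENSMUSG00000042459, chr2:154008265-154016079, plus strand) encodes a secreted protein best known from salivary gland. It was at 0.4345, 0.08585, 0.81 and 0.518 CPM in 200H and at 4.58, 4.00, 3.45 and 2.34 CPM in 200M, that is 19 counts over the 4 200H and 172 counts over the 4 200M libraries. The groups did not overlap, with a log2 difference of 2.99 (SE 0.41, adjusted p = 0.0232) and a call in 3 of 8 fits with a library left out. Bpifa2 passed the filter on low counts only through the 200M libraries. Its call and its separation therefore depend on the group where it is high and are not independent support. Other salivary gland genes, chosen after the values were seen, did not separate the groups: Smgc had 11 counts in 200H and 9 in 200M, Pip 3 and 2, Prol1 5 and 6, Muc19 18 and 21, and Amy1 2.23 to 5.06 CPM in 200H and 3.16 to 4.42 CPM in 200M. Bpifa1, a relative of Bpifa2, had 44 counts in 200H and 48 in 200M, of which 33 were in 200H replicate 3 and 34 in 200M replicate 1, with 0 to 10 in each of the other 6 libraries. Bpifa2 had 8 and 59 counts in those 2 libraries, and the part of such transcripts in its result was not tested.

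The last of the 7 was Gm47691, a long noncoding RNA (ENSMUSG00000112498, chr10:13043097-13051385, minus strand). It was at 19.99, 19.15, 20.75 and 22.2 CPM in 200H and at 10.48, 14.2, 8.92 and 9.75 CPM in 200M. The ranges did not overlap, and it was 1.89-fold lower (log2 difference -0.92, SE 0.14, adjusted p = 0.0399), called in 2 of the 8 fits with a library left out.

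The major hormones other than luteinizing hormone showed no detectable second step. Prl, which encodes prolactin, was at 48100, 62500, 28980 and 49710 CPM in 200H and at 61900, 40240, 45840 and 37920 CPM in 200M. The ranges overlapped, and the log2 difference was -0.03 (SE 0.19, adjusted p = 0.998). Gh had -0.16 (SE 0.11, adjusted p = 0.936), Pomc 0.07 (SE 0.10, adjusted p = 0.99) and Tshb, the beta subunit of thyrotropin, 0.10 (SE 0.12, adjusted p = 0.982). Of the lists of other hormone cells, 9 lactotrope, 7 somatotrope, 8 corticotrope and melanotrope and 4 thyrotrope genes were tested, and 0 were called by edgeR or by DESeq2. That is near the shares over all genes, 0.0383% by edgeR and 0.238% by DESeq2. At an unadjusted p under 0.05 there were 0 lactotrope genes, 1 lower somatotrope gene (Ghrhr, the receptor of the releasing hormone for growth hormone, log2 difference -0.33), 1 higher corticotrope gene (Crhr1) and 1 lower (Neurod1), and 1 higher thyrotrope gene (Trhr). Over all genes 3.29% were higher and 2.62% lower at that threshold, and lists this short do not allow a comparison with those shares.

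The lists of chosen genes in this paragraph and the next had 0 calls by either tool. Over all genes edgeR called 0.0383% and DESeq2 0.238%, so that 0 is near those shares. Of 22 tested mesenchymal genes 16 were positive (beside 49.29% of all genes) with a median of 0.10, and 0 were called by either tool. Vim, an intermediate filament of mesenchymal cells, had 0.05 (adjusted p = 0.998), Postn 0.59 (adjusted p = 0.843) and Lox, a collagen cross-linking enzyme, -0.49 (adjusted p = 0.497). Rest, a repressor of neuronal genes, had 0.07 (adjusted p = 0.996). Of 16 genes published as miR-200 targets other than Zeb1 and Zeb2, 14 were positive with a median of 0.07, 0 were called, and Msn, which encodes moesin and links the membrane to actin, had the smallest p (0.24, SE 0.06, adjusted p = 0.27). Its 200M libraries were at 137 to 146 CPM, above every 200H library at 110 to 123 CPM. Read over the annotated 3′ UTRs of all genes, 1179 tested genes with a perfect 8-base match to either seed (CAGTATTA or CAGTGTTA, Zeb1 left out) had a median of 0.02 and 9688 genes with no 7-base match one of -0.00. Their first steps had medians of 0.09 and -0.01. The study matched its nontargets to targets by 3′ UTR length. The sets here were not matched for length, and no test was made of these medians.

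Markers of stem and folliculostellate cells, endothelium, fibroblasts, immune cells and blood were given in full to show which cells could move with these results, and 0 of 33 tested were called by either tool. Their medians were -0.09, -0.01, 0.02, -0.03 and -0.51. The 5 blood genes were each lower, and their summed level was 70.6 to 207 CPM in 200H and 91.9 to 120 CPM in 200M, so that the ranges overlapped. Immediate early genes were negative in 16 of 18, with a median of -0.30 and 0 called. Junb, a component of AP-1, was at 20.4 to 63.7 CPM in 200H and at 10.2 to 14.5 CPM in 3 200M libraries, with 47.4 CPM in 200M replicate 4. The part of these genes in the results above was not tested. Cell cycle genes were negative in 11 of 19, with a median of -0.08 and 0 called. Chaperone and stress genes of the endoplasmic reticulum were negative in 15 of 16, with a median of -0.08 and 0 called. At an unadjusted p under 0.05, 2 of these 16 were lower (12.5%, beside 2.62% of all genes). Over all genes 50.71% were negative.

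**Figure D4:**
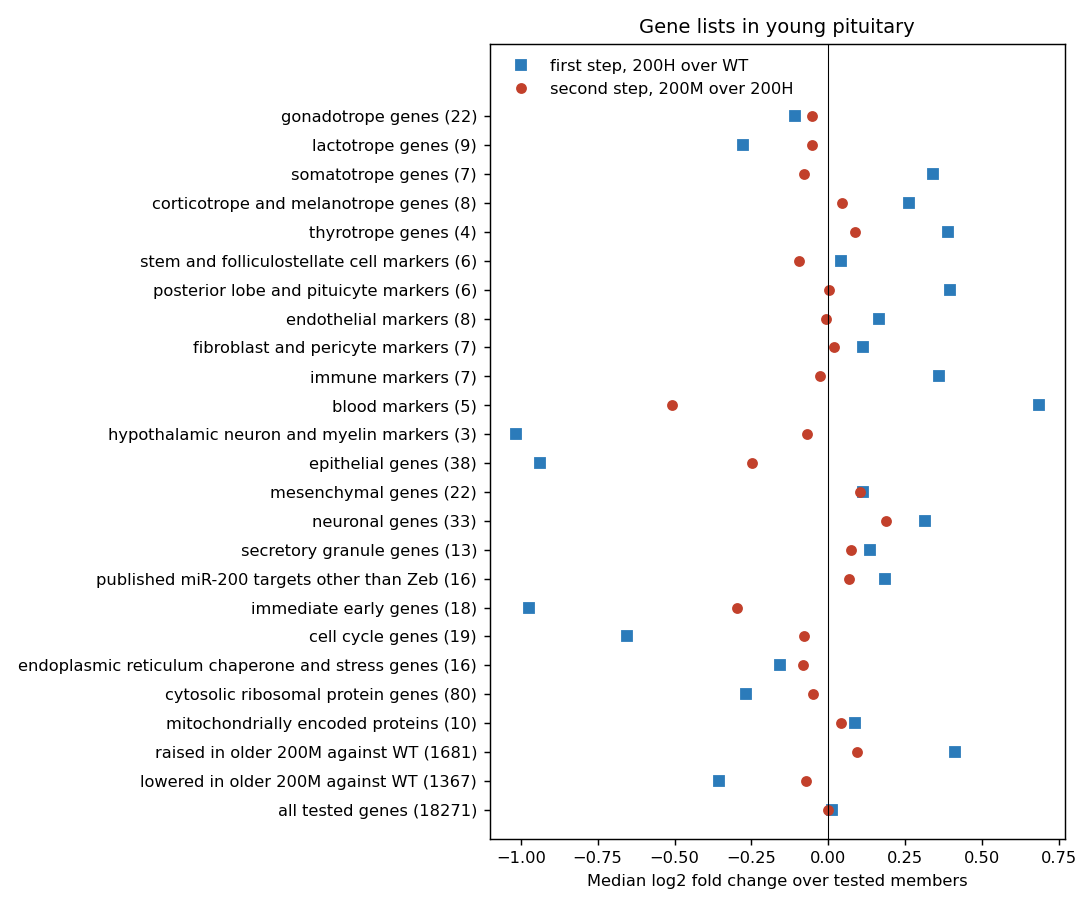
Median log2 difference (horizontal axis) over the tested members of each gene list, numbers in brackets, for the step from WT to 200H (blue squares) and from 200H to 200M (red circles) in young pituitary. The second step lies closer to 0 than the first in most lists, with -0.25 against -0.94 for epithelial genes and 0.19 against 0.315 for neuronal genes.

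The second step was then set beside the first, that is 200H against WT, which called 2218 of 18051 genes (12.3%), 1185 higher (6.56%) and 1033 lower (5.72%). This number was 1321 without WT replicate 1 and 1196 without the unnumbered WT library. The steps share the 200H libraries, so their values are given side by side and are not correlated. Of the 7 genes called by edgeR in the second step, 6 were tested in the first and each was called there in the same direction. For Epcam the first step was -2.56 and the second -0.74, for Tmc4 -2.11 and -0.76, for Gm47691 -0.96 and -0.92, for Tgfbr3l -0.84 and -0.64, for Grin2b 1.94 and 0.94, and for Peg10 1.06 and 0.62. Bpifa2 had 0 counts in the 3 WT libraries and was not tested there. Lhb had -0.88 in the first step and -0.81 in the second, a difference of 0.08 (adjusted p = 0.932). Of the 44 genes called by DESeq2 in the second step, 27 were called higher and 10 lower by edgeR in the first, and 6 were not called. Among those 6 were Rab11fip1, Alox12e, Ttn, Stk35 and Slitrk6.

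Whether a gene's second step differs from its first was tested in a single contrast over all 11 libraries, and 297 of 18856 genes (1.58%) were called, 123 with a positive (0.652%) and 174 with a negative difference (0.923%). There were 168 calls without 200H replicate 4 and 170 without the unnumbered WT library. In 162 of these (54.55%) 200H lay between the means of WT and 200M and the first step was the larger, in 75 (25.25%) 200H lay above both means and in 60 (20.2%) below both. The second step was the larger of 2 steps in the same direction for 0 of the 297. Nnat, which encodes neuronatin, had a mean of 1353 CPM in WT (SD 55.1, n = 3), against 2760 (SD 219, n = 4) in 200H and 2573 (SD 196, n = 4) in 200M, with steps of 1.02 and -0.10 (adjusted p of the difference 5.62e-05). Hmcn1, an extracellular matrix protein, had -1.52 and 0.01 (adjusted p = 7.13e-05), and Myo5c, an epithelial myosin motor, -1.98 and 0.16 (adjusted p = 0.00113).

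Among the genes lowered by the first step, several epithelial genes were called in this contrast. Epcam differed by 1.83 (adjusted p = 2.24e-05), Esrp1 by 2.71 (adjusted p = 1.74e-05), Rab25 by 2.88 (adjusted p = 7.13e-05), Galnt3, a mucin-type glycosyltransferase, by 3.17 (adjusted p = 0.000227) and Tmc4 by 1.36 (adjusted p = 0.000798). In the epithelial list 11 of 38 genes were called in this contrast, beside 1.58% of all genes. The list was drawn up with earlier results of these data known. In the first step, which enters this contrast, 23 of the 38 were called lower. The share of 11 of 38 is therefore not independent evidence. Prl differed by 1.56 (adjusted p = 0.0164), with -1.58 in the first step and -0.03 in the second. Genes that rose in the first step and differed with small p-values included Nrsn2 (-2.35, adjusted p = 1.53e-06), Akap6 (-2.05), Snhg11 (-1.80), Faim2 (-1.61), Dpp6 (-1.27) and Dnm1 (-1.23).

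**Figure D5:**
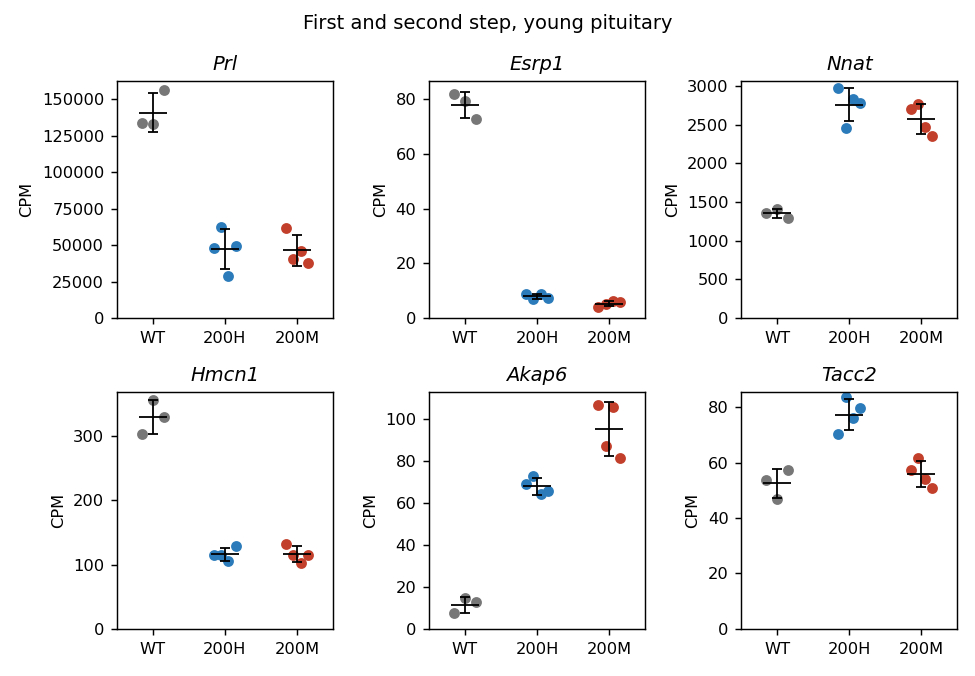
CPM (vertical axis, from 0) of 6 genes in each young pituitary library, with mean and SD bars for WT (n = 3), 200H (n = 4) and 200M (n = 4). Prl, Esrp1 and Hmcn1 were lower and Nnat and Akap6 higher in 200H than in WT, and Tacc2 was higher in 200H than in both other genotypes.

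Tacc2 and Ddit4l had calls in opposite directions in the 2 steps, the second step by DESeq2. Both steps and their contrast share the 200H libraries, so the p-values of each gene are not separate evidence of a reversal. Tacc2, a centrosome-associated protein, was at 46.7 to 57.2 CPM in WT, 70.2 to 83.7 CPM in 200H and 50.7 to 61.7 CPM in 200M. Its first step was 0.55 (adjusted p = 0.002) and its second -0.47 (edgeR adjusted p = 0.0649, DESeq2 adjusted p = 0.000208), and the difference of -1.004 was called (adjusted p = 0.00181). Ddit4l, an inhibitor of growth signalling, had 0.96 and -0.57 (difference adjusted p = 0.00353). These were the 2 of the 44 genes called by DESeq2 in the second step whose first step was called in the other direction.

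The contrast was also read in older pituitary, in other mice and with other library chemistry (3 200M and 4 200H libraries), where edgeR called 18 of 14862 genes (0.121%), 14 higher (0.0942%) and 4 lower (0.0269%). Without single libraries there were 2 (200H replicate 1), 407 (200H replicate 2), 2 (200H replicate 3), 4 (200H replicate 4), 1 (200M replicate 1), 0 (200M replicate 2) and 0 calls (200M replicate 3). DESeq2 called 125 genes there (0.847%). Of the 7 genes called in the young mice 6 were tested, all 6 had the same sign, and 4 had an unadjusted p under 0.05. Peg10 was called, at 134, 118, 170 and 232 CPM in older 200H and at 458, 403 and 379 CPM in older 200M (log2 difference 1.34, SE 0.18, adjusted p = 0.0241). The ranges did not overlap. Trank1 was called with a log2 difference of 1.33 (adjusted p = 0.0178) and Vsnl1, a neuronal calcium sensor, with 1.03 (adjusted p = 0.0373). Of the 44 genes called by DESeq2 in the young, 42 were tested and 37 had the same sign, 24 of these with an unadjusted p under 0.05. The matching shares over all older genes were not counted, so these numbers, like those of the 6 edgeR genes, have no background beside them. Lhb was at 133, 203, 127 and 90.7 CPM in older 200H and at 54.2, 82.1 and 30.7 CPM in older 200M, with no overlap and a log2 difference of -1.29 (SE 0.29, adjusted p = 0.112). Epcam had -0.58 (adjusted p = 0.181). The epithelial list had an older median of -0.04 over 37 tested genes, with 0 called by edgeR, beside -0.25 in the young. The neuronal list had 0.22 over 33 tested genes, with 2 called by edgeR, beside 0.19 in the young. Over all genes tested in both cohorts the older median was -0.00. Tacc2 had 0.00 (adjusted p = 0.999). Age, breeding history and library chemistry cannot be told apart between the cohorts.

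Genes called in older 200M against WT, a contrast in other mice that called 3153 of 14711 genes (21.4%), were used as lists for the second step of the young. Of 1681 tested genes that were higher there (11.7% of all were called higher and 9.77% lower), 1338 (79.6%) were positive in young 200M against 200H, with a median of 0.09, beside 49.29% and -0.00 over all genes. At an unadjusted p under 0.05 281 were higher (16.72%, beside 3.29% of all genes) and 7 lower (0.416%, beside 2.62%). Of 1367 tested genes that were lower there, 994 (72.71%, beside 50.71% of all genes) were negative, with a median of -0.07. At an unadjusted p under 0.05 129 were lower (9.44%, beside 2.62%) and 5 higher (0.366%, beside 3.29%). That contrast called 2062, 1875 and 1867 genes without older 200M replicates 1, 2 and 3. The first step of these lists had medians of 0.41 and -0.36. The medians of the higher list in single libraries were -0.03 to 0.04 in 200H and 0.03 to 0.15 in 200M, where 200M replicate 4 lay within the range of 200H. Those of the lower list were -0.056 to 0.038 in 200H and -0.11 to -0.022 in 200M, where 200M replicate 1 lay within the range of 200H.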

How the data were processed

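The authors deposited 1 table per pair of genotypes, with raw read counts per gene and library beside their own DESeq2 fold changes and p-values, which were not used here. Per the study's methods and the submitters' processing notes, ribosomal RNA was depleted from total RNA of young pituitary, stranded libraries were sequenced from both ends, reads were aligned with STAR 2.7.1a to mm10, which is GRCm38, and featureCounts assigned them by strand to GENCODE genes. Poly(A) RNA was used for the older cohort, and its reads were counted without strand by HTSeq 0.9.1. Counts of reads without molecular identifiers are not counts of molecules, and intervals are not given.

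The test on the deposited counts was the quasi-likelihood test of edgeR 4.0.16, run under R 4.3.3 with limma 3.58.1 through glmQLFit and glmQLFTest, with TMM scaling, filterByExpr and Benjamini-Hochberg adjustment over all tested genes. Genotypes were fitted pair by pair, and the steps were compared by the contrast of 200M minus 200H with 200H minus WT over 11 libraries. A gene was called at an adjusted p under 0.05. The SE of a log2 fold change is its size over the square root of F. CPM use TMM factors of all 11 libraries of a cohort. DESeq2 1.42.0, other scalings, no filter, 1 fit over 11 libraries, voom with quality weights, each library left out and a replicate block were alternatives, and the script was tested on simulated data. Medians of gene lists are given without a test. Coordinates are those of GENCODE M21. Table IDs had a symbol in 99.53% of 55401 cases. 1 WT library has a column number that the labels do not settle, and its genotype was taken from the column name.

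Genes were named by a rule: every edgeR call, the 20 next DESeq2 calls, a fixed set of pituitary, Zeb and epithelial genes, the 2 members of smallest p in each list and the 8 genes of smallest p in each direction of the contrast of the steps. Not all are printed, and some called genes are not reported here. Members and lists were chosen with earlier results of these data known. Replicate numbers were not used as pairs in the main test, and the labels do not say what they mark. Pairs of libraries in a young group differed by a chi-square of 3.39 to 16.9 per degree of freedom, so none was a copy of another. The p-values measure the spread between mice of a group.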

Additional observations from a re-analysis of the deposited data

Results flagged for a closer look

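In 7 of 138 groups of 4 libraries, over 69 genes of the text, 1 library lay far from the other 3, with a gap to its nearest neighbour above the critical share of the range in Dixon's test. Chance alone gives about 1 in 20 such groups. Fos was at 205 CPM in 200H replicate 3 (nearest 34.2 CPM) and at 172 CPM in 200M replicate 4 (nearest 16.5 CPM). Junb was at 47.4 CPM in 200M replicate 4 (nearest 14.5 CPM). Msn was at 146 CPM in 200M replicate 1 (nearest 137.5 CPM) and Smad3 at 100.1 CPM in 200M replicate 2 (nearest 80.3 CPM). Vsnl1 was at 11.2 CPM in 200H replicate 2 (nearest 8.49 CPM). Gm15884 was at 0.932 CPM in 200H replicate 4 (nearest 0.429 CPM).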

How the results depend on the processing

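The 7 calls of the second step became 130 without the count filter, 44 with DESeq2, 12 with 1 fit over 11 libraries, 15 with voom and quality weights, and 37 without the library of highest Fos in each genotype, an alternative chosen after seeing the data. They ranged from 0 to 26 with 1 library left out, and with other scalings were 7. With 0 calls there were 872 genes at an unadjusted p under 0.05 (200M replicate 1 out) and 859 (200M replicate 3 out). For the difference between steps, the 297 calls became 765 without the filter and 498 with DESeq2, and 168 to 333 with a library left out. They were 335 without the library of highest Fos in each genotype. The first step gave 1196 to 2259 calls with a library left out. The older 18 calls became 549 without the filter, 125 with DESeq2 and 0 to 407 with a library left out, and older 200M against WT gave 1867 to 3768. The cause of these changes was not tested.

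The labels do not say what the replicate numbers mark. Correlations of same-numbered libraries were -0.083 to 0.104, and 0 of 4 200M libraries correlated best with their own number. A correlation over 0.1 was found in 2 of 4 same-numbered pairs and in 2 of 12 others. So few pairs cannot exclude a pairing by number. With the replicate block there were 0 calls in the second step (1021 at an unadjusted p under 0.05) and 115 in the difference between steps, and Prl had 0.0012.

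Small second steps changed sign. With a library left out Fos ranged from -2.47 to 1.23, Prl from -0.20 to 0.13, Fshb from -0.11 to 0.38, Tshb from -0.016 to 0.23, Pomc from -0.040 to 0.15, Vim from -0.027 to 0.12, Hmcn1 from -0.056 to 0.077, Gnrhr from -0.068 to 0.11 and Cdh1 from -0.11 to 0.11. Without both libraries of highest Fos, Rest had -0.026, Hmcn1 -0.049 and Gnrhr -0.0064, and with voom Hmcn1 had -0.028 and Gnrhr -0.0026. The medians of the lists from older mice ranged from 0.085 to 0.11 and from -0.083 to -0.054. Genes under about 1 CPM, such as Bpifa2 in 200H, rest on few counts.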
